A study of Homo sapiens with 18 samples.

Results

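H2087-LCC-SO1 (here SO1) is a subline of human lung adenocarcinoma cells in which 3 histone modifications were mapped by chromatin immunoprecipitation and sequencing (ChIP-seq). The map consists of the 3 SO1 peak lists, for H3K27ac, H3K4me1 and H3K4me3, chosen by the cell line and antibody in their labels. They are 3 of the 18 samples of the series, of which 13 have a peak file, and hold 213136 of its 947675 peaks. The series concerns dormant metastasis and its reactivation. SO1 cells were grown with the medium of the H2087-LCC cells, RPMI with serum, hydrocortisone, selenite, insulin, transferrin, albumin and epidermal growth factor, and their labels name no treatment, genotype or transgene. How SO1 was derived from H2087-LCC, and whether it is a single clone, is not given in the sources used here. Chromatin was crosslinked with formaldehyde and precipitated with an H3K27ac antibody of Active Motif, an H3K4me1 antibody of Abcam or an H3K4me3 antibody of Millipore Sigma. Each mark was profiled in 1 library. The values below therefore have no replicate error and no test between marks was run. Gene positions on the build of the files (hg19) were not used here, so sites are given by hg19 position, no gene is named, and the cell type label was not checked against marker genes.

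The 3 marks label different parts of regulatory DNA. H3K4me3 is laid down on the nucleosomes next to active or poised transcription start sites. H3K4me1 covers enhancers and the outer flanks of promoters, and it is present at enhancers whether or not they are active. H3K27ac is deposited by acetyltransferases such as p300 and CBP at promoters and enhancers in use. A site with H3K4me1 and H3K27ac but no H3K4me3 is thus commonly read as an active enhancer, one with H3K4me3 and H3K27ac as an active promoter, and one with H3K4me1 alone as a primed or inactive enhancer.

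The deposited files give each peak as a single summit 1 bp wide, its point of strongest signal, with a score, read here as −log10 of a p or q value, that is higher for a more certain peak. After chromosomes other than 1 to 22 and X were left out, 56279 H3K27ac, 128082 H3K4me1 and 28627 H3K4me3 summits were used. Neighbouring summits of the same mark lay a median of 13579 bp apart for H3K27ac, 6365 bp for H3K4me1 and 36603 bp for H3K4me3. Scores had medians of 30.1 for H3K27ac, 15.8 for H3K4me1 and 183 for H3K4me3, and were compared within a list only. The H3K4me3 scores formed a low and a high group: 37.2% of the summits scored below 50, 2.25% between 250 and 300, and 11.3% between 550 and 600. Read depth is unknown. The intervals given for shares are Wilson 95% intervals and those for medians are 95% intervals from order statistics, and both cover counting error only.

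H3K27ac in SO1 was mostly accompanied by at least one of the H3K4 marks. Within 1 kb, 51.4% (51.0 to 51.8) of the H3K27ac summits had H3K4me1 but no H3K4me3, the enhancer-like combination. A further 31.2% (30.8 to 31.5) had both H3K4 marks, 7.93% (7.71 to 8.15) had H3K4me3 without H3K4me1, and 9.53% had neither. With the H3K4 lists moved along the chromosomes by 2 Mb, 89.7% of the H3K27ac summits had neither mark. These shares move with the distance allowed and with the length of the lists: among the 28627 highest-scoring summits of each mark, 57.7% of H3K27ac summits had H3K4me3, against 39.1% in the full lists.

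Seen from the promoter mark, 56.0% (55.4 to 56.5) of the H3K4me3 summits had both H3K27ac and H3K4me1 within 1 kb. H3K27ac without H3K4me1 was found at 17.1% of them, H3K4me1 without H3K27ac at 17.3%, and neither at 9.68%. With moved lists, 89.1% had neither. From the H3K4me1 side, 56.9% (56.7 to 57.2) of the summits had neither of the other marks within 1 kb, 23.2% had H3K27ac without H3K4me3, 13.95% had both and 5.91% had H3K4me3 without H3K27ac.

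Joining summits of any mark that lay within 1 kb of their neighbour gave 126914 elements. H3K4me1 alone made up 68271 of them, or 53.8%, the primed-like class. These were mostly weak: their strongest H3K4me1 summit had a median score of 8.76, against 43.3 in elements with H3K27ac and H3K4me1. The enhancer-like combination of H3K27ac and H3K4me1 came to 25866 elements (20.4%), and all 3 marks met in 17290 (13.6%). The remaining combinations were smaller: 4731 elements with the 2 H3K4 marks and no H3K27ac, 4687 with H3K27ac alone, 3373 with H3K27ac and H3K4me3, and 2696 with H3K4me3 alone. Elements with all 3 marks were also the longest, with a median of 874 bp from first to last summit. The median was 217 bp for the enhancer-like ones and 85 bp for those with H3K27ac and H3K4me3. Of the elements with all 3 marks, 37.3% held 4 or more summits, and of the enhancer-like ones 1.62%. An element with all 3 marks needs at least 3 summits and an enhancer-like one 2, so these differences follow in part from the definition. The number of elements with all 3 marks fell to 7352 when summits had to lie within 500 bp.

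Scores differed by combination within each list. H3K27ac summits with H3K4me3 but no H3K4me1 within 1 kb had the highest median score, 167 (162 to 172). Those with both H3K4 marks had 75.3 (73.7 to 77.4), the enhancer-like ones 16.4 (16.04 to 16.7), and those with neither mark 8.75 (8.43 to 9.17). All H3K27ac summits with H3K4me3 together had a median 5.47 times that of the enhancer-like ones, 89.7 against 16.4. This ratio was 2.72 when scores below 10 were left out and 1.61 with lists of equal length, and H3K27ac with H3K4me3 had the higher median in each of these lists. The upper parts of the distributions overlap: 21.9% of the H3K27ac summits in the highest decile were enhancer-like. The highest enhancer-like summit reached 638, as did the highest with H3K4me3. That enhancer-like summit, chr7:73131930, lay 1810 bp from an H3K4me3 summit of 756 and was placed in its class by the 1 kb limit.

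H3K4me1 followed another order. Its summits scored highest beside H3K27ac without H3K4me3, with a median of 40.5 (40.2 to 41.0). With both other marks the median was 29.7, with H3K4me3 without H3K27ac 19.7, and with neither 8.16. H3K4me3 summits were strongest where H3K27ac was present and H3K4me1 absent within 1 kb, with a median of 538 (533 to 543), against 316 (300.5 to 330.3) with all 3 marks. With H3K4me1 but no H3K27ac the median was 44.9, and with neither mark it was 19.6.

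**Figure D1:**
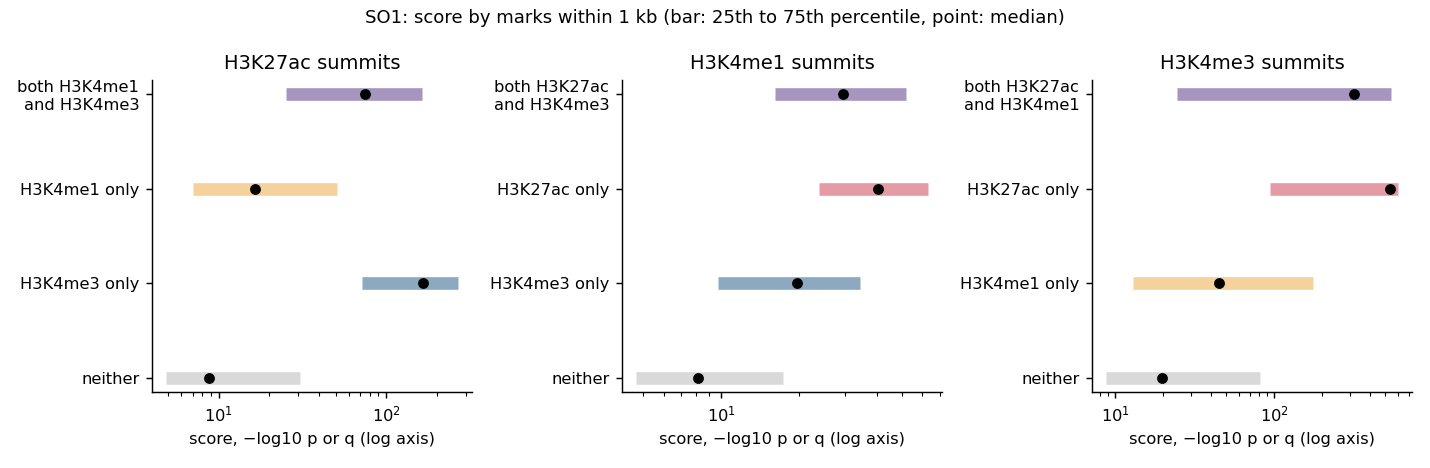
Scores of the SO1 summits of each mark (−log10 of a p or q value, log axes) by the other marks within 1 kb; bars span the 25th to 75th percentile and points are medians. H3K27ac and H3K4me3 scored highest beside each other with no H3K4me1 summit within 1 kb (medians 167 and 538), though H3K4me1 often lay just beyond. H3K4me1 scored highest beside H3K27ac without H3K4me3 (median 40.5).

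The positions of the marks relative to each other depended on the strength of the H3K4me3. Over all H3K4me3 summits, the median distance from an H3K4me3 summit to the nearest H3K27ac summit was 230 bp (214 to 247), and 39.3% lay within 100 bp, against 0.444% with a moved list. The nearest H3K4me1 summit lay at a median of 639 bp (633 to 646), and 9.14% lay within 100 bp. This median was 5979 bp with lists of equal length. From H3K27ac summits the nearest H3K4me1 lay at a median of 455 bp and the nearest H3K4me3 at 4817 bp.

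H3K4me3 summits were then divided by score into 4 groups of equal size. In the highest group, with scores from 540 to 777, H3K4me1 summits were depleted at the centre. Their density within 100 bp was 0.0147 per kb per H3K4me3 summit, 6.23 times lower than the 0.0914 per kb found 20 to 50 kb away. It rose to 0.888 per kb between 700 and 800 bp, 9.72 times the level far away. Only 22 of these 7156 H3K4me3 summits had an H3K4me1 summit within 100 bp. In the lowest group, with scores up to 18.7, the pattern was turned around. H3K4me1 was densest within 100 bp of the summit, at 0.829 per kb, and fell with distance, and 1192 of 7157 summits had H3K4me1 within 100 bp. The median distance to H3K4me1 was 474 bp in the lowest group, 431 bp in the second, 598 bp in the third and 880.5 bp in the highest. The median distance to H3K27ac went the other way, from 565 bp in the lowest group and 438 bp in the second to 106 bp in the third and 114 bp in the highest. H3K27ac was thus the nearer mark by median in the upper 2 groups, and H3K4me1 in the lowest, while in the second the medians differed by a few bases. Within 100 bp, however, 1834 summits of the lowest group had H3K27ac, more than had H3K4me1. The H3K4me1 list is also the denser one. With moved lists, the median distance over all H3K4me3 summits was 12503 bp to H3K4me1 and 30594 bp to H3K27ac.

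The flanks of strong H3K4me3 sites carried H3K4me1 on both sides. Between 250 and 2500 bp from the summit, 78.6% (77.7 to 79.6) of the highest group had an H3K4me1 summit on each side and 1.97% had none. In the third group 61.0% had both sides, in the second 11.2% and in the lowest 6.89%. These shares depended on the length of the H3K4me1 list. When the H3K4me1 list was reduced to its 28627 highest-scoring summits, all with scores of 40.1 or more, the share with both sides in the highest group fell to 8.44%. With scores of at least 10 in every list it was 69.4%, there for the highest of 4 groups formed anew from the remaining 24147 H3K4me3 summits.

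H3K27ac was densest within 100 bp of the H3K4me3 summit in all 4 groups. Its density within 100 bp rose from 1.27 per kb in the lowest group to 1.75 in the second, 2.44 in the third and 2.36 in the highest. In the highest group a dip to 0.194 per kb followed at 200 to 300 bp and a smaller rise to 0.374 per kb at 600 to 700 bp. At H3K27ac summits without H3K4me3, unlike at the highest H3K4me3 group, H3K4me1 was densest within 100 bp, at 1.57 summits per kb. It fell to 0.250 per kb at 300 to 400 bp and rose again to 0.382 per kb at 500 to 600 bp. At 20 to 50 kb it was 0.0918 per kb. For 48.7% of those summits an H3K4me1 summit lay within 250 bp. Between 250 and 2500 bp, 48.5% had H3K4me1 on 1 side only and 8.56% on both sides. Since each peak is given as 1 summit, a wide H3K4me1 peak that covers both flanks and the centre counts once.

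**Figure D2:**
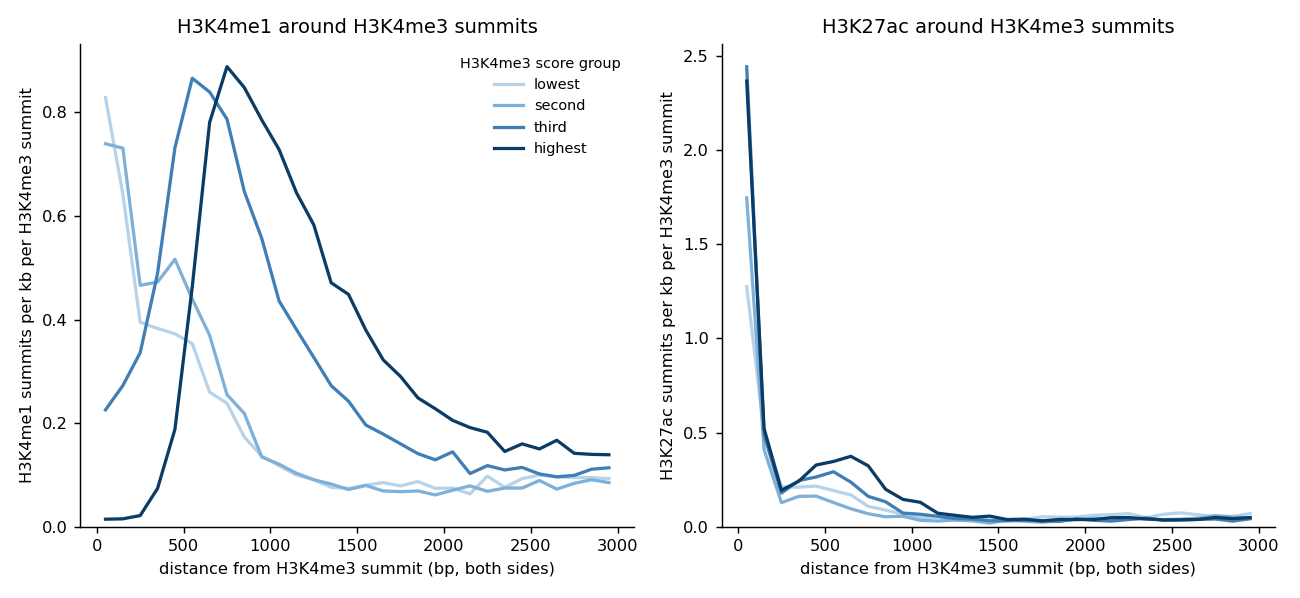
Density of H3K4me1 (left) and H3K27ac (right) summits by distance from SO1 H3K4me3 summits, in bins of 100 bp with both sides added, for 4 groups of H3K4me3 summits by score. H3K4me1 is nearly missing at the centre of the highest group (0.0147 per kb) and peaks at 700 to 800 bp, whereas in the lowest group it peaks at the centre, and H3K27ac peaks at the centre in all 4 groups.

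The combinations changed along the H3K4me3 score in steps. In the highest group 58.6% of the summits had all 3 marks within 1 kb, 33.7% had H3K27ac without H3K4me1, and 2.89% had H3K4me1 without H3K27ac. Among the summits of intermediate score the picture differed: in the fifth decile, with a median score of 108, 32.5% had H3K4me1 without H3K27ac and 61.2% had H3K27ac. The share with H3K27ac was 71.4% in the sixth decile and 89.6% in the seventh, and lay between 91.6% and 93.9% in the 3 highest. H3K4me1 within 1 kb was most frequent in the sixth decile, at 87.4%, and fell to 58.1% in the highest.

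Most H3K4me3 summits of the lowest group had no stronger summit at or above the H3K4me3 list median within 5 kb. Stronger neighbours below that median were not counted. Such a neighbour was still more frequent there than in the other groups, with 7.80% in the second, 4.11% in the third and 0.866% in the highest. Of the 7157 in the lowest group, 10.9% (10.2 to 11.7) had a stronger H3K4me3 summit at or above the list median within 5 kb, and 41.2% had one within 25 kb. Of the 6376 without one within 5 kb, 3216 (50.4%) carried all 3 marks within 1 kb, close to the 49.1% of the whole lowest group, with a median H3K4me1 score of 64.3 and a median H3K27ac score of 89.4 for the strongest summit there. The list medians were 15.8 and 30.1, over all summits and not the strongest of each site. The corresponding H3K27ac medians were 62.6 in the second group, 62.0 in the third and 108 in the highest, so H3K27ac was lower in the middle groups than at either end. The H3K4me1 medians were 46.6, 25.7 and 29.7. Over all H3K4me3 summits with the partner mark, the rank correlation of the H3K4me3 score with the best score within 1 kb was 0.17 for H3K27ac (n = 20915) and -0.21 for H3K4me1 (n = 20964). At enhancer-like summits, H3K27ac and H3K4me1 scores had a rank correlation of 0.58 (n = 28922). These correlations are descriptions across sites of 1 set of cells, whose lists share copy number and mappability.

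**Figure D3:**
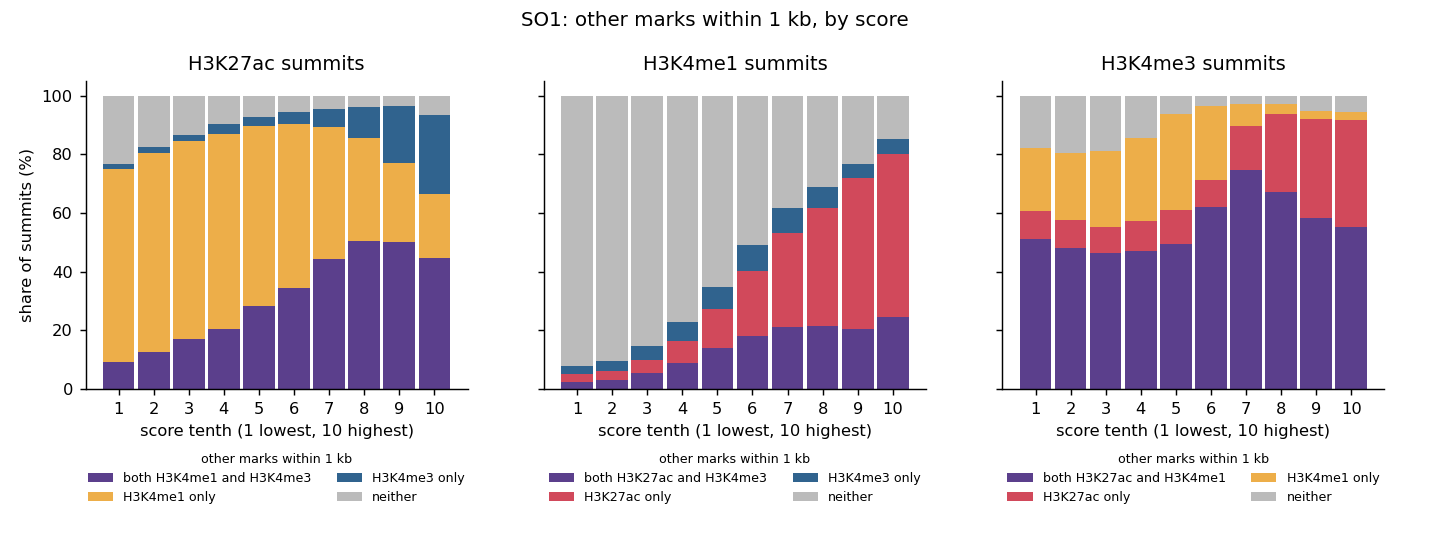
Share of SO1 summits of each mark with the other marks within 1 kb, by score decile of the summit (1 lowest, 10 highest). H3K4me1 goes from 92.3% with neither mark in the lowest decile to 14.9% in the highest, and H3K27ac without H3K4me3 becomes rarer as its score rises.

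The share of H3K27ac summits with H3K4me3 rose with the H3K27ac score from 10.8% in the lowest decile to 71.6% in the highest. Strong and weak H3K4me3 contributed differently to this rise. H3K4me3 at or above its list median lay within 1 kb of 4.18% of the H3K27ac summits in the lowest decile, 50.3% (49.0 to 51.6) in the ninth and 39.9% (38.6 to 41.2) in the highest. H3K4me3 below its median accompanied 19.2% in the ninth decile and 31.7% in the highest. Among the 563 H3K27ac summits of the top 1%, 51.0% (46.9 to 55.1) had H3K4me3 below its median, 20.2% (17.1 to 23.8) had it at or above, and 28.8% had none. In this top 1%, H3K27ac was thus found more often beside weak than beside strong H3K4me3, whereas in the whole highest decile strong H3K4me3 was the more frequent. Over all H3K27ac summits, 24.3% had strong and 14.8% weak H3K4me3.

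For H3K4me1 the turn was sharper. H3K4me3 at or above its median accompanied 21.5% of the H3K4me1 summits in the seventh decile and 4.04% (3.71 to 4.39) in the highest. Weak H3K4me3 accompanied 8.41% and 25.3% (24.6 to 26.1). In the top 1% of H3K4me1, 1281 summits, 30 had strong H3K4me3, 453 had weak H3K4me3 and 798 had none. H3K27ac lay within 1 kb of 80.2% of the H3K4me1 summits in the highest decile and 5.13% in the lowest.

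**Figure D4:**
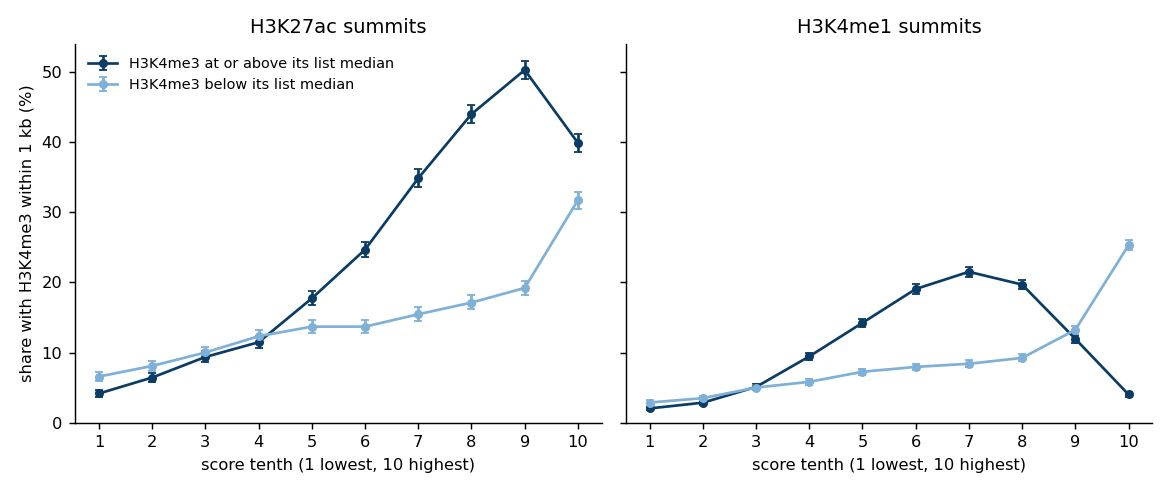
Share of SO1 H3K27ac (left) and H3K4me1 (right) summits with an H3K4me3 summit within 1 kb that scores at or above, or below, the H3K4me3 list median, by score decile (1 lowest, 10 highest), with Wilson 95% intervals. Strong H3K4me3 peaks in the ninth H3K27ac decile (50.3%) and the seventh H3K4me1 decile (21.5%), and weak H3K4me3 is most frequent in the highest decile of both (31.7% and 25.3%).

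The single strongest sites show the same division between marks. The 5 highest H3K27ac summits lay at chr1:59229616 (score 638), chr9:131902759 (638), chr7:73131930 (638), chr22:30593220 (621) and chr12:120668874 (617). None of them had H3K4me3 above its list median of 183 within 1 kb. The first had an H3K4me3 summit 1 bp away with a score of 64.6 and its nearest H3K4me1 summit 1433 bp away. The second had H3K4me3 of 160 at 806 bp and H3K4me1 of 84.6 within 1 kb. At the third, H3K4me1 scored 36.6, and a strong H3K4me3 summit of 756 lay 1810 bp away, outside the 1 kb counted. The fourth had H3K4me3 of 11.3 at 89 bp, and the last combined H3K4me3 of 95.8 at 4 bp with H3K4me1 of 161, above 99.8% of its list.

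The 5 highest H3K4me3 summits lay at chr6:122721066 (777), chr7:100291312 (776), chr1:12290356 (764), chr22:39916831 (764) and chr6:160390644 (760.5). All 5 had H3K27ac within 100 bp, but its scores ranged from 52.1 to 465. The lowest of these, at chr1:12290356, stood above 60.4% of the H3K27ac list and the highest, at chr22:39916831, above 99.3%. H3K4me1 lay between 508 and 1715 bp from these summits, with scores of 55.7, 2.96 and 12.8 at the 3 sites where it was within 1 kb.

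Among the 5 highest H3K4me1 summits, chr12:53301433 (258) had H3K27ac of 368 at 414 bp and weak H3K4me3 of 11.99, and chr9:116342532 (233) had H3K27ac of 447 and H3K4me3 of 301. The other three, chr8:128921233 (240), chr2:96101211 (222) and chr8:128844719 (221), had no H3K27ac summit within 1 kb, though the nearest lay 2860, 1184 and 1002 bp away. The last 2 had weak H3K4me3 of 35.7 at 140 bp and 10.5 at 148 bp.

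The sites at which every mark present ranked high in its own list give the clearest cases of each combination. With all 3 marks, chr1:156630324-156631617 scored 489 for H3K27ac, 120 for H3K4me1 and 653 for H3K4me3. Its H3K27ac and H3K4me3 summits were 24 bp apart, and the stronger of its 2 H3K4me1 summits lay 716 bp from the H3K4me3 summit. The site chr1:155242091-155243794, next in rank, had 350 for H3K27ac, 95.8 for H3K4me1 and 645 for H3K4me3, with the first and last 15 bp apart and H3K4me1 1000 bp from H3K4me3. In both, H3K27ac and H3K4me3 shared a centre and H3K4me1 lay to the side. The last of the leading 3, chr7:56118859-56120642 (361 for H3K27ac, 94.0 for H3K4me1 and 632 for H3K4me3), was arranged otherwise. Its H3K27ac summit lay 933 bp from the H3K4me3 summit and its H3K4me1 summit 850 bp.

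The leading enhancer-like sites, each with only 1 summit of H3K27ac and 1 of H3K4me1, were more compact than the leading sites with all 3 marks. At chr10:74081149-74081268 H3K27ac scored 529 and H3K4me1 205, with summits 119 bp apart. At chr1:6376633-6376762 the scores were 518 and 157 at a distance of 129 bp, and at chr10:105518659-105518663 they were 535 and 152 at 4 bp. Promoter-like sites without H3K4me1 within 1 kb were led by chr6:30688829-30688891 (H3K27ac 469, H3K4me3 701), with 62 bp between the summits, and by chr22:39916829-39916831 (465 and 764), with 2 bp. Sites with both H3K4 marks and no H3K27ac within 1 kb were led by chr3:126702676-126703494, with H3K4me3 of 664 and H3K4me1 of 92.7 a distance of 818 bp apart.

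Strong summits counted as having no other mark usually had one just outside 1 kb. Of the 161 H3K4me3 summits of the highest decile with neither mark, 156 had another mark within 2500 bp, as had 314 of 368 such H3K27ac summits and 1479 of 1910 such H3K4me1 summits. The strongest H3K4me3 summit of this class, chr7:73133740 with a score of 756, stood 1810 bp from chr7:73131930, which is among the 3 strongest H3K27ac summits of SO1. The strongest H3K27ac summit of the class, chr7:130597650 with 604, had H3K4me3 of 626 at 1229 bp. The strongest H3K4me1 summit of the class, chr8:128921233 with 240, had H3K4me3 of 35.4 at 1346 bp and H3K27ac of 303 at 2860 bp. Below the highest decile such summits stood farther from other marks, least so for H3K27ac. Of the 4994 remaining H3K27ac summits without either mark, 64.4% still had one within 2500 bp, at a median of 2027 bp. Of the remaining 71019 H3K4me1 summits without either mark, 19.2% had one within 2500 bp, and the median distance to the nearest was 7519 bp. Of the 2610 remaining H3K4me3 summits without either mark, 40.2% had one within 2500 bp.

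H3K27ac summits were further joined into clusters where neighbours lay within the stitching distance customary for super-enhancers, just over 12 kb, which gave 29298 clusters, of which 16469 held 1 summit and 185 held 10 or more. The 185 large clusters held 2332 summits, 4.14% of all, and had a median length of 51698 bp. Their makeup differed from that of single summits. H3K27ac without either H3K4 mark within 1 kb made up 31.6% (29.7 to 33.5) of the summits in large clusters and 2.32% (2.10 to 2.56) of the single ones. The enhancer-like share was 41.2% against 50.0%, and the share with both H3K4 marks 18.5% against 38.6%. The summits without an H3K4 mark in large clusters were weak, with a median score of 6.89, and lay a median of 3016 bp from the nearest H3K4me1 summit. The 382 single summits of this class had a median score of 50.0 and a median distance of 1682 bp. H3K4me1 lay within 5 kb of 78.1% of those in large clusters and 71.2% of the single ones. The share of summits without an H3K4 mark in large clusters was 16.8% when marks within 2500 bp were counted and 16.5% among scores of at least 10. The share among single summits was not computed with these settings, so whether the contrast holds under them was not tested. Only 23 clusters held 10 or more summits with scores of at least 10, and 9 when joined within 5 kb. H3K27ac summits with H3K4me3 had a median score of 163 in large clusters and 78.3 among single summits, while the enhancer-like ones had 16.7 and 17.1.

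The cluster with the highest summed H3K27ac score, chr19:1169528-1275680, held 31 H3K27ac summits over 106153 bp, with a highest score of 494. With summits just beyond its ends counted, it had 32 H3K4me1 summits and 15 H3K4me3 summits. The strongest H3K4me3, at 639, lay outside these ends, at -884 bp from the first H3K27ac summit. Of its H3K27ac summits, 10 had both H3K4 marks, 16 H3K4me1 without H3K4me3 and 2 neither. The next, chr17:55912189-56032942, held 22 H3K27ac, 21 H3K4me1 and 10 H3K4me3 summits. The third, chr1:8193290-8274384, reached its sum with 15 H3K27ac summits of up to 498 and no strong promoter: the highest of its 9 H3K4me3 scores was 65.9. The last 2 of the 5 highest were chr3:182972422-183046278, with 16 H3K27ac summits, and chr6:56502696-56632935, with 32, the most of any cluster, of which 16 had neither H3K4 mark.

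After the chromosome 6 and chromosome 19 clusters, the cluster with the most summits was of another kind. At chr12:104696537-104736236, 26 H3K27ac summits were packed into 39700 bp with a median gap of 1268 bp, a median score of 4.58 and a highest score of 30.5. It held 5 H3K4me1 summits of at most 15.4 and 3 H3K4me3 summits of at most 7.67, and 16 of the 26 had neither mark within 1 kb. At chr12:66219900-66293623, 16 of 19 H3K27ac summits had neither mark, although the cluster contained an H3K27ac summit of 547 and H3K4me3 of 618, with 4 H3K4me1 summits in all. At chr10:101666078-101765714 the count was 18 of 25. These 3 clusters, and the comparison by cluster size, were chosen after their values were seen.

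**Figure D5:**
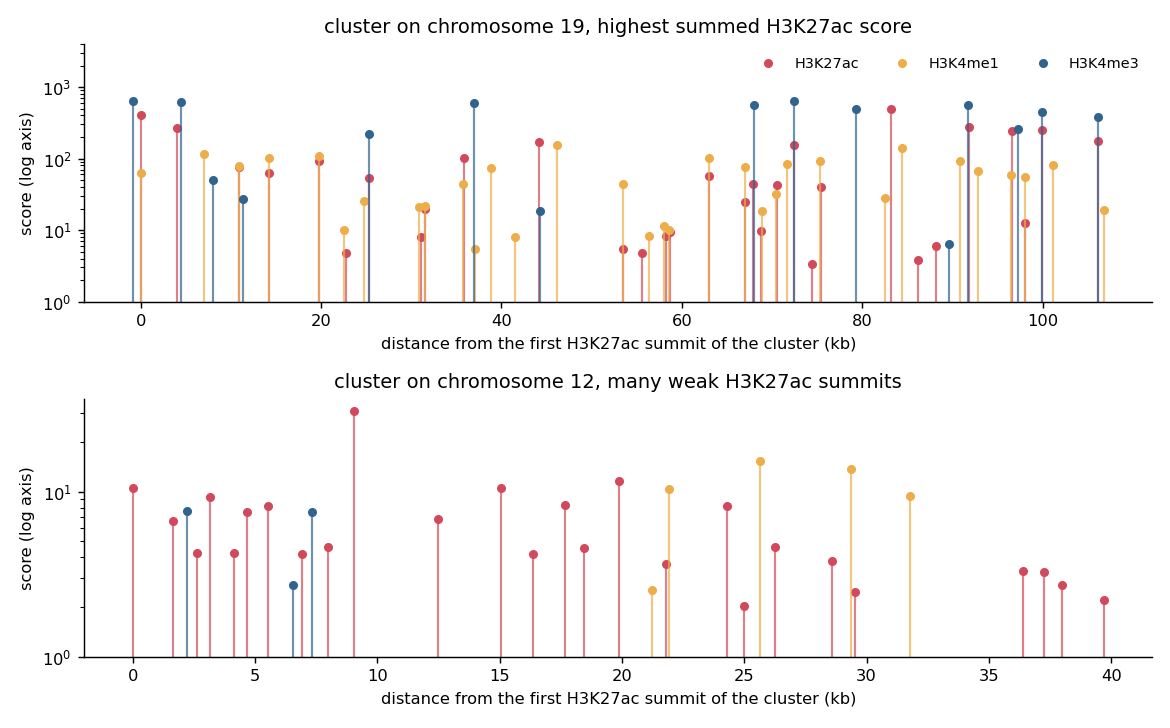
Summits of the 3 marks in 2 SO1 H3K27ac clusters, by distance in kb from the first H3K27ac summit, with scores on a log axis. In the chromosome 19 cluster (top) all 3 marks recur with scores up to 639, and in the chromosome 12 cluster (bottom) 26 H3K27ac summits with a median score of 4.58 stand with 5 H3K4me1 and 3 H3K4me3 summits.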

How the data were processed

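Per the labels, chromatin of SO1 cells was precipitated with 1 antibody per library, and the submitters' processing notes name the tools Bowtie2, SAMtools and deepTools and the build hg19. Which peak caller and control were used is not given in the sources used here. The authors deposited summits 1 bp wide with a score, taken here for −log10 of p or q since every value lies above that of 0.05. No read counts or peak widths come with them, so depth is unknown.

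Only chromosomes 1 to 22 and X entered the counts (45 H3K27ac, 64 H3K4me1 and 39 H3K4me3 summits were left out), with no score filter. A mark was present when a summit lay within 1000 bp. Elements joined summits of all marks within 1000 bp. The sites given are drawn from the 5 highest summits of each list, the 3 leading elements of each combination (ranked by the lowest percentile among their marks), the 5 clusters of highest summed score and the 5 elements with the most summits. Outside this rule, 3 clusters with many summits and 3 blocks of 500 kb were named after their values were seen. Members and rules were chosen with earlier results of these data known. Gene lists and cell type markers need gene positions on hg19 and were not used here. Alternatives were other distances, scores of at least 10 and lists of equal length. No test was run. The counting functions were tested on simulated data. Python 3.11.15, numpy 2.4.6, scipy 1.17.1 and matplotlib 3.10.9 were used.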

Additional observations from a re-analysis of the deposited data

How the results depend on the processing

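The share of H3K27ac summits with H3K4me3 was 31.2% with a distance of 500 bp, 44.1% with 2500 bp, 43.3% with scores of at least 10 and 57.7% with lists of equal length. In the same order, the enhancer-like share of H3K27ac was 41.8%, 52.7%, 49.4% and 30.6%, the share of H3K4me3 summits with H3K27ac 61.0%, 78.4%, 70.0% and 57.5%, and the share of H3K4me1 summits with neither mark 72.2%, 45.1%, 49.1% and 39.1%. Lists of equal length hold 28627 summits each, which keeps H3K27ac scores above 28.8 and H3K4me1 scores above 40.1. The enhancer-like combination was therefore the larger one in the full lists and the smaller one in lists of equal length. The median distance from H3K4me3 to H3K4me1 was 766 bp with scores of at least 10 and 5979 bp with lists of equal length. The ratio of H3K27ac scores with H3K4me3 to enhancer-like ones was 5.06 with 500 bp, 5.43 with 2500 bp, 2.72 with scores of at least 10 and 1.61 with lists of equal length, and stayed above 1 throughout. Elements with all 3 marks numbered 20296 when joined within 2000 bp. With an outer distance of 1500 bp, H3K4me1 lay on both sides of 50.3% of the strongest H3K4me3 group, and the share of H3K27ac without H3K4 marks in large clusters was 42.5% when joined within 5 kb. The alternatives for those last 2 shares were chosen after seeing the data. No paired analysis was possible because each mark of SO1 has 1 library. Read depth, peak width and copy number are unknown, and their part in these results was not tested.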

Other observations

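The balance of promoter-like and enhancer-like sites differed between chromosomes in SO1. On chromosome 19, 61.0% (58.9 to 63.1) of the H3K27ac summits had H3K4me3 within 1 kb, followed by chromosome 16 with 47.0% (44.8 to 49.1), and the lowest share was 33.8% (31.4 to 36.4) on chromosome 13. Chromosome 19 had 0.509 enhancer-like elements for each element with H3K27ac and H3K4me3, and chromosome 4 had 1.58. H3K4me1 without either other mark made up 40.01% of its summits on chromosome 19, 50.8% on chromosome X and 60.3% on chromosome 13. The share of H3K4me3 summits with H3K27ac varied less, from 69.3% on chromosome 18 to 78.9% on chromosome 16.

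In blocks of 500 kb the counts of the 3 marks rose together. Their rank correlations were 0.94 for H3K27ac and H3K4me1, 0.83 for H3K27ac and H3K4me3 and 0.84 for H3K4me1 and H3K4me3. The median count per block was 9 for H3K27ac, 22 for H3K4me1 and 4 for H3K4me3, so blocks without a mark are few to begin with. Of 3297 blocks with at least 15 H3K4me1 summits, 1 held no H3K27ac summit and 35 held no H3K4me3 summit. The exception, chr7:15500001-16000000, held 23 H3K4me1 summits and 1 H3K4me3 summit. Conversely, 351 of the 5120 blocks with any summit had H3K4me3 but no H3K27ac. The block chr19:1000001-1500000 led both the H3K27ac and the H3K4me3 counts, with 67 and 41 summits, while chr10:79000001-79500000 led H3K4me1 with 106 summits beside 37 of H3K27ac and 11 of H3K4me3.

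The elements with the most summits were not among the strongest. The largest, chr3:8540640-8545516, joined 5 H3K27ac, 5 H3K4me1 and 2 H3K4me3 summits over 4877 bp, with highest scores of 65.8, 19.7 and 246. The next, chr18:60381928-60385751, held 9 summits with highest scores of 32.2 for H3K27ac, 14.3 for H3K4me1 and 331 for H3K4me3. The other three held 8 summits each, with a highest H3K4me3 score between 40.1 and 402.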
